A study of Drosophila melanogaster with 6 samples.

Results

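The Q79K-W80R form of human AKT1 was set directly against its T1 form in Drosophila follicle cells, using 6 of the 18 RNA-Seq libraries of the series and 2 of its 6 groups. The members were chosen by their line: the 3 libraries of the Q79K-W80R line and the 3 libraries of the T1 line. Of 17493 genes in the matrix of normalized counts, 9065 had a value of at least 10 in 3 or more of these 6 libraries and were tested.

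Both lines carried a UAS transgene for human AKT1, tagged with 3xFLAG and inserted at the 51C landing site, together with the tj-GAL4 driver, whose activity in the ovary is in somatic cells. Q79K-W80R carried a pair of neighboring substitutions in the pleckstrin homology domain, and T1 carried an in-frame tandem duplication in the same domain, both forms having been found in juvenile granulosa cell tumors. T15 and T5 expressed other duplications, WT expressed AKT1 without a mutation under the same driver, and LP had the empty landing site. These 4 groups are given only as a background to single genes. Each library came from 30 pairs of ovaries, which were digested with trypsin and collagenase, after which the freed cells were passed through a mesh. No sort of the cells is described in the sources used here. Each transgene stands for a single line, so the AKT1 form and any other difference between the lines cannot be told apart. The age of the females was not given. Human AKT1 is not among the genes of the matrix, so neither mutation could be checked. The sample record of Q79K-W80R names 2 result files, and the third of its libraries was assigned by the line name it shares with them.

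AKT is a serine/threonine kinase downstream of PI3K that is recruited to the plasma membrane by its pleckstrin homology domain. In flies, Akt promotes cell growth through the TOR complex and keeps the transcription factor FOXO out of the nucleus. Follicle cells form the epithelium around the nurse cells and the oocyte, and they secrete yolk proteins, the vitelline membrane and the chorion as the egg chamber matures.

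The normalized counts summed to 23.7 to 24.3 M in the Q79K-W80R libraries and 24.01 to 27.98 M in the T1 libraries. The median SD of a gene within a group was 0.0746 on the log2 scale in Q79K-W80R and 0.279 in T1. The third T1 library stood apart from the other T1 libraries: over centered log2 values of all 18 libraries it correlated at -0.28 and -0.37 with them, and its nearest library was one of T15 (0.46). Results are therefore also given without it. Follicle cell markers summed to 1387830, 1473080 and 1386050 in Q79K-W80R libraries, against 929900, 1173460 and 2658500 in T1 libraries, with all 10 markers detected. The 14 midgut enzyme markers summed to 3.93, 5.52 and 8.52 in Q79K-W80R libraries, where 7 of them were at 0, against 381, 5643 and 18.5 in T1 libraries, where none of them was at 0 throughout. The 10 germline markers summed to 20171, 22670 and 25222 in Q79K-W80R libraries, against 14401, 13061 and 12296 in T1 libraries, so the groups did not overlap. Sums over markers of muscle, hemocytes, fat body and neurons overlapped between the groups. The 3 tracheal markers summed to 104, 105 and 96.3 in Q79K-W80R libraries, against 143, 109 and 154 in T1 libraries.

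A total of 137 genes (1.51% of those tested) differed at an adjusted p under 0.05 with a change of at least 1.5-fold, and such genes are called DEGs below. Of these, 113 (1.25%) were higher in Q79K-W80R, with a median Log2FC of 1.16, and 24 (0.265%) were lower, with a median of -2.24. The Log2FC is the difference of log2(normalized count + 1), Q79K-W80R minus T1, and its median over all genes tested was 0.01. The groups did not overlap in 1506 genes (16.6%), 951 (10.5%) with Q79K-W80R above T1 in every library and 555 (6.12%) with it below. At an unadjusted p under 0.05 there were 865 genes (9.54%), 601 higher (6.63%) and 264 lower (2.91%). When the third T1 library was left out there were 393 DEGs (4.34%), 254 higher (2.8%) and 139 lower (1.53%), and all 137 were among them. Without the second T1 library it was 74, and with 1 of the Q79K-W80R libraries left out it was 1, 1 or 2. With all 18 libraries in 1 fit it was 86, of which 57 were higher and 29 lower.

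**Figure D1:**
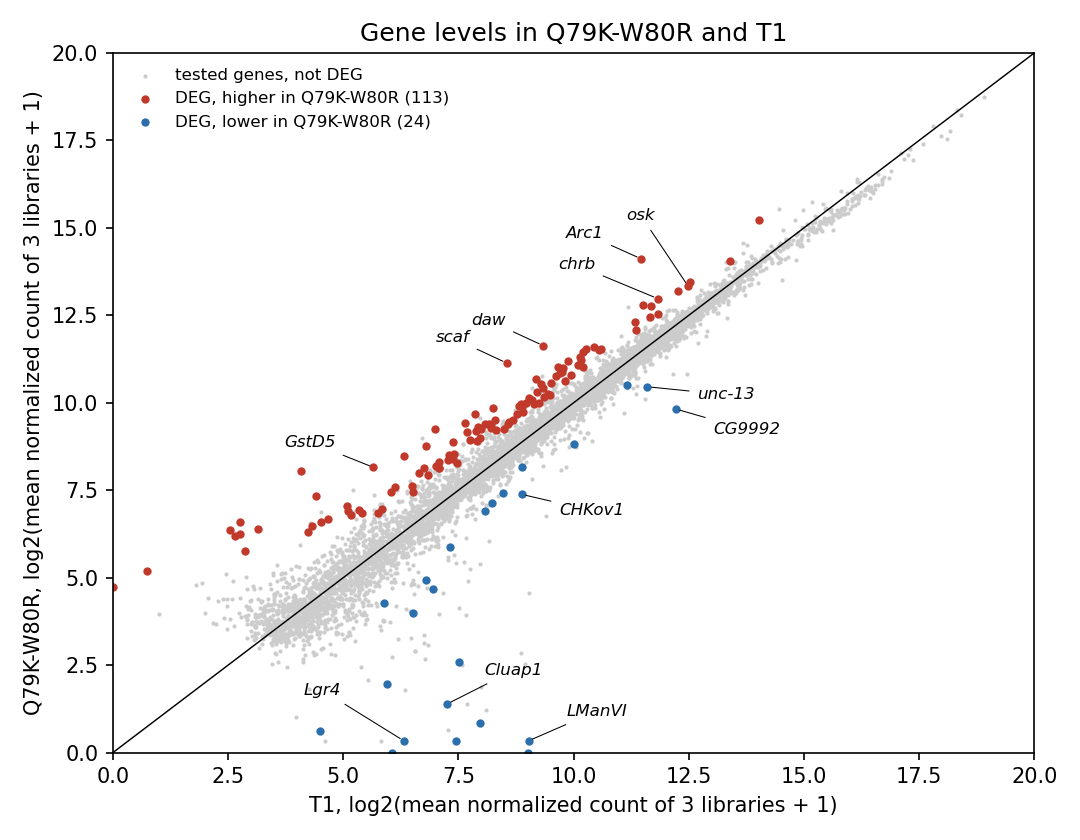
Mean normalized count of each of the 9065 genes tested, in Q79K-W80R on the vertical axis and T1 on the horizontal axis, both as log2(mean of 3 libraries + 1), with the line of equal levels. The 113 DEGs higher in Q79K-W80R lie above the line at all levels, and 5 of them are under 10 in every T1 library. Of the 24 lower ones, 9 are under 10 in every Q79K-W80R library.

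Where the DEGs stood against the WT and LP libraries differed from gene to gene. Of the 113 higher DEGs, Q79K-W80R lay above every WT and LP library in 41 and overlapped their range in 72. T1 lay below every WT and LP library in 14 of the 113, above them in 14 and overlapped their range in 85. Against LP alone, T1 lay below every library in 73 of the 113, above in 20 and overlapped in 20. Against WT alone it lay below in 19, above in 17 and overlapped in 77. Of the 24 lower DEGs, Q79K-W80R lay below every WT and LP library in 13, and T1 lay above them in 8. The same counts were not made over all genes tested, so these are descriptions only. Against all 15 other libraries, Q79K-W80R lay above in 231 of the 9065 genes and below in 82. T1 did so in 22 and 8, T5 in 17 and 17, T15 in 87 and 126, WT in 97 and 91 and LP in 163 and 141.

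Arc1, which encodes a protein related to retroviral Gag that forms capsids in flies, had the smallest p of all genes. Its normalized count was 19331, 18619 and 15420.1 in Q79K-W80R libraries, against 2962, 2749 and 2751 in T1 libraries. The groups were far apart, and the 3 T1 libraries nearly coincided (Log2FC 2.65 ± 0.12 (SE), adjusted p = 0.0016). In the background groups it was 2360.3 ± 587 in WT and 2683 ± 381 in LP (SD, n = 3 each), so T1 was at about their level. Arc1 was the only DEG that passed under all 17 alternatives tried, including each Q79K-W80R library left out.

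Genes for secreted signaling proteins and a TOR regulator were also higher in Q79K-W80R. The gene daw encodes Dawdle, a ligand of the activin branch of TGF-beta signaling and a known target of FOXO in fly muscle. Its counts were 2785, 3199.7 and 3558 in Q79K-W80R libraries, against 767, 532 and 639 in T1 libraries (Log2FC 2.31 ± 0.16 (SE), adjusted p = 0.0082). The groups did not overlap, and T1 in turn lay above LP, where daw averaged 138 ± 50.2 (SD, n = 3).

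The scaf gene encodes Scarface, a secreted serine protease homolog that lacks catalytic activity and is a target of JNK signaling in the embryo. It had 1545, 2254 and 2955 in Q79K-W80R libraries, against 331, 249 and 539 in T1 libraries (Log2FC 2.61 ± 0.34 (SE), adjusted p = 0.0208). The Q79K-W80R libraries spread over a wider range for scaf than for Arc1, yet the lowest of them was well above the highest T1 library. Of 18 genes of the JNK pathway tested, scaf was the only DEG, and the median Log2FC of the list was -0.03. The scaf call was lost without the first or the second T1 library.

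The gene chrb encodes Charybde, a relative of mammalian REDD1 that inhibits TOR signaling. Its counts were 7599, 7963 and 8675 in Q79K-W80R libraries, against 4492, 3621 and 2758 in T1 libraries (Log2FC 1.18 ± 0.18 (SE), adjusted p = 0.0366). All Q79K-W80R libraries were above all T1 libraries, although the T1 libraries themselves were spread out. WT averaged 1759.9 ± 192 and LP 2071 ± 351 (SD, n = 3 each). The chrb call was lost without a trend, in the fit of 12 libraries, with the replicate block and without the second T1 library. Of the 34 tested genes for PI3K, Akt and TOR signaling, chrb was the only DEG. The median Log2FC of that list was -0.02, and its closest relative in the list, scyl, had a Log2FC of 0.57 ± 0.26 (SE) that did not pass (adjusted p = 0.598). The fly gene Akt had 2690.5, 2764 and 2704 in Q79K-W80R libraries, against 2949, 2786 and 3170 in T1 libraries. The groups did not overlap for Akt, but the difference did not pass (Log2FC -0.12 ± 0.09 (SE), adjusted p = 0.866).

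Glutathione S-transferases conjugate glutathione to reactive and foreign compounds, and most of the genes of the D class lie in 1 cluster on arm 3R. Of 31 such genes tested, 3 were DEGs and all 3 were higher in Q79K-W80R, beside 1.25% of all genes. An unadjusted p under 0.05 in that direction was found in 15, where 6.63% of all genes had it. None was lower by either measure. The median Log2FC of the list was 0.60, against 0.01 over all genes tested. Without the third T1 library the median was 0.35, 8 were DEGs higher and 1 was a DEG lower.

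GstD5 had 278, 297 and 277 in Q79K-W80R libraries, against 33.3, 58.9 and 55.8 in T1 libraries (Log2FC 2.54 ± 0.24 (SE), adjusted p = 0.00905). Its T1 libraries were in turn all above the LP libraries, whose mean was 10.8 ± 2.89 (SD, n = 3). GstD4 had 79.9, 92.2 and 130.2 in Q79K-W80R libraries, against 28.8, 21.7 and 23.1 in T1 libraries (Log2FC 1.98 ± 0.26 (SE), adjusted p = 0.0208). For GstD4 the T1 libraries overlapped those of WT and LP. GstD3, the most abundant of the 3, had 2596, 2857 and 3446 in Q79K-W80R libraries, against 1559.8, 1782 and 1289 in T1 libraries (Log2FC 0.94 ± 0.16 (SE), adjusted p = 0.0493). It passed narrowly, and it kept its call under 4 of the 17 alternatives.

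Of the same cluster, GstD2 had 5821, 6740.4 and 7822 in Q79K-W80R libraries, against 3448, 2598 and 878 in T1 libraries. The groups did not overlap, but the T1 libraries were so far apart that the difference did not pass (Log2FC 1.76 ± 0.48 (SE), adjusted p = 0.216). GstD7 (Log2FC 1.59 ± 0.32 (SE), adjusted p = 0.0846), GstD6 (Log2FC 1.99 ± 0.41 (SE), adjusted p = 0.0855) and GstD10 (Log2FC 1.57 ± 0.38 (SE), adjusted p = 0.159) also lay above T1 in every library without passing. GstD9 and GstE1 did likewise, with Log2FC values of 0.68 ± 0.27 and 0.49 ± 0.20 (SE) and adjusted p values of 0.487 and 0.519. The D-class genes resemble each other in sequence, so how reads were divided between GstD3, GstD4 and GstD5 is uncertain.

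**Figure D2:**
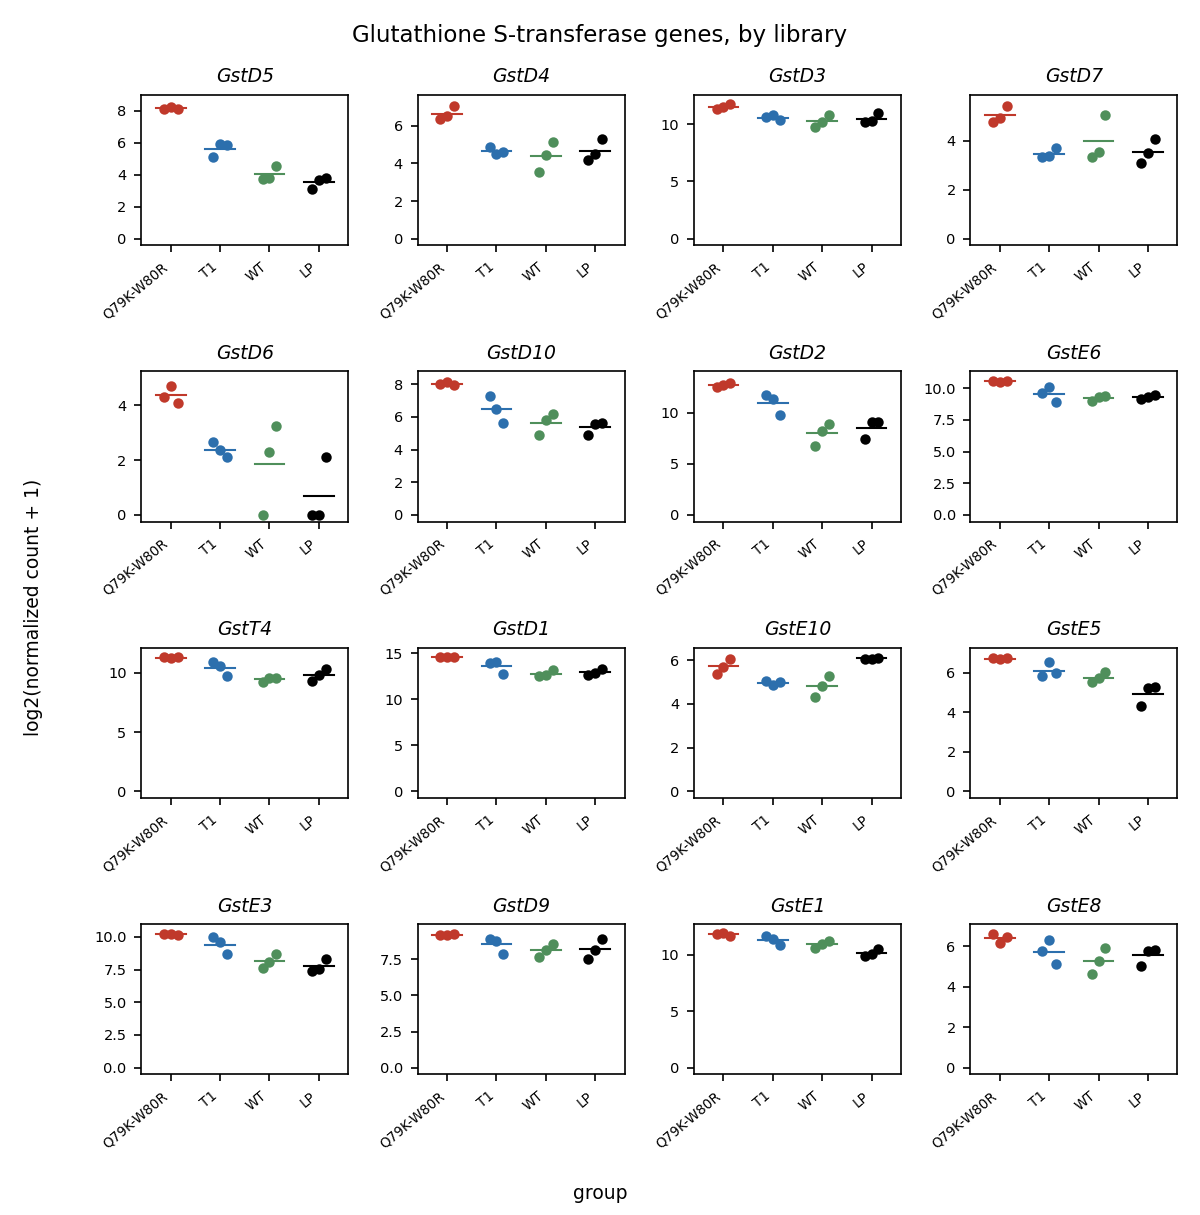
The 16 glutathione S-transferase genes with the smallest p, each point a library and each bar the mean of 3 libraries, as log2(normalized count + 1). Q79K-W80R and T1 points are in library order and WT and LP points run from low to high. Every Q79K-W80R library is above every T1 library in 16 of the 31 genes of the list, beside 10.5% of all genes, and in 15 of the 16 shown here, which were picked by this same difference.

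Of 49 cytochrome P450 genes tested, which include further enzymes of detoxification, 3 were DEGs higher in Q79K-W80R, beside 1.25% of all genes, and none was lower. The median Log2FC of the list was 0.19. Without the third T1 library it was -0.14, on the other side of 0, and 6 were DEGs higher. Cyp9b2 had 672, 716 and 678 in Q79K-W80R libraries, against 202, 281 and 115 in T1 libraries (Log2FC 1.88 ± 0.31 (SE), adjusted p = 0.042), and the other two were Cyp6a19 (Log2FC 1.33 ± 0.13, adjusted p = 0.00905) and Cyp6a22 (Log2FC 1.12 ± 0.16, adjusted p = 0.031). The groups did not overlap for any of these genes. Of 17 antioxidant enzymes tested, none was a DEG, and the median Log2FC was 0.08.

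Among genes of metabolism, Gapdh2, which encodes the glycolytic enzyme glyceraldehyde-3-phosphate dehydrogenase, had 17003, 17230.2 and 16789 in Q79K-W80R libraries, against 10123, 10809 and 11509.8 in T1 libraries (Log2FC 0.66 ± 0.11 (SE), adjusted p = 0.0449). The difference was small but larger than the spread within either group. It was the only DEG among 21 glycolysis and trehalose genes tested, whose median Log2FC was 0.20. The Gapdh2 call was lost without the filter, after scaling by the median of ratios, with the replicate block and without the first or the second T1 library. PCB, which encodes pyruvate carboxylase, had 1094, 1211 and 1165 in Q79K-W80R libraries, against 761, 571 and 628 in T1 libraries (Log2FC 0.83 ± 0.13 (SE), adjusted p = 0.0366), and was the only DEG of 22 genes of glutamate metabolism and gluconeogenesis. For PCB the Q79K-W80R libraries lay near LP, where the mean was 1274 ± 179 (SD, n = 3), and T1 lay lower. The PCB call was lost without a trend, in the fits of 12 and 18 libraries, with the replicate block and without the second T1 library. Gdh, which encodes glutamate dehydrogenase, was at 21778, 23378 and 25559.6 in Q79K-W80R libraries, against 22304, 23076 and 23605 in T1 libraries, and the groups overlapped (Log2FC 0.03 ± 0.13 (SE), adjusted p = 0.992). Both forms lay above WT for Gdh, where the mean was 7225 ± 1132 (SD, n = 3).

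Lipid genes gave single DEGs. Acsx3, a member of the acyl-CoA synthetase family, had 61.5, 82.7 and 78.7 in Q79K-W80R libraries, against 4.50, 4.16 and 8.65 in T1 libraries (Log2FC 3.52 ± 0.35 (SE), adjusted p = 0.00982). T1 was at the level of WT and LP, which averaged 5.58 ± 2.73 and 3.65 ± 2.75 (SD, n = 3 each). With every T1 library under 10, Acsx3 passed the filter only through Q79K-W80R, and its Log2FC depends on the added 1. Jabba, a lipid droplet protein that anchors histones in eggs, had 1960.3, 2094 and 2052 in Q79K-W80R libraries, against 919, 824 and 874 in T1 libraries (Log2FC 1.22 ± 0.09 (SE), adjusted p = 0.0082). Here Q79K-W80R was at the level of LP (1754 ± 349, SD, n = 3). The gene bgm, for a very long chain acyl-CoA synthetase, was also higher (Log2FC 1.11 ± 0.18 (SE), adjusted p = 0.0422). It was the only DEG of 26 fatty acid synthesis genes, and Jabba was the only one of 18 genes of lipid droplets and lipolysis. The calls of Jabba and bgm were lost in the fits of 12 and 18 libraries. The bgm call was also lost after quantile normalization, without a trend, with array weights, with the replicate block and without the second T1 library.

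Several of the largest rises were in genes with few reads. Ir94f was under 10 in every T1 library, so it passed the filter only through Q79K-W80R, and its Log2FC depends on the added 1. Ir94f, of the ionotropic receptor family of chemosensory genes, had 117, 93.8 and 75.3 in Q79K-W80R libraries, against 9.91, 4.15 and 3.25 in T1 libraries (Log2FC 3.93 ± 0.42 (SE), adjusted p = 0.0112), and it was listed at 0 in all WT libraries. Obp56d, an odorant-binding protein gene, had 173, 165 and 141 in Q79K-W80R libraries, against 25.8, 28.4 and 6.79 in T1 libraries (Log2FC 3.13 ± 0.51 (SE), adjusted p = 0.042). Obp99b, of the same family, had 101, 83.5 and 82.3 in Q79K-W80R libraries, against 10.8, 20.6 and 25.5 in T1 libraries (Log2FC 2.24 ± 0.34 (SE), adjusted p = 0.0323). In each of these genes the groups were well separated, and the means of WT and LP were below that of T1.

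TotM, of the Turandot family of secreted stress proteins, had 50.2, 51.6 and 56.8 in Q79K-W80R libraries, against 10.3, 6.41 and 2.32 in T1 libraries (Log2FC 3.04 ± 0.49 (SE), adjusted p = 0.0387). Its relative TotC was also above T1 in every library but did not pass (Log2FC 2.93 ± 0.51 (SE), adjusted p = 0.0511). The gene org-1, for a T-box transcription factor, had 73.2, 81.5 and 78.8 in Q79K-W80R libraries, against 27.9, 15.5 and 10.3 in T1 libraries (Log2FC 2.17 ± 0.36 (SE), adjusted p = 0.0461). The gene mfr, for a ferlin needed in sperm, had 76.6, 67.9 and 97.8 in Q79K-W80R libraries, against 2.93, 3.38 and 8.05 in T1 libraries (Log2FC 3.91 ± 0.41 (SE), adjusted p = 0.0112). For mfr WT reached into the Q79K-W80R range with 24.7 to 101, while LP was as low as T1 with 0 to 7.58. Like Ir94f, mfr was under 10 in every T1 library and passed the filter only through Q79K-W80R.

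Some further DEGs were named after their values were seen. Zip89B, of the ZIP family of zinc transporters, had 912, 935 and 917 in Q79K-W80R libraries, against 289, 219 and 402 in T1 libraries (Log2FC 1.64 ± 0.21 (SE), adjusted p = 0.0208). Dronc, which encodes the initiator caspase of flies, had 860.1, 835 and 843 in Q79K-W80R libraries, against 503, 524 and 406 in T1 libraries (Log2FC 0.83 ± 0.12 (SE), adjusted p = 0.0316), and was the only DEG of 15 cell death genes. The Dronc call was lost with the replicate block and without the first or the second T1 library. Punch (Pu), the GTP cyclohydrolase of pteridine synthesis, was higher as well (Log2FC 0.92 ± 0.12 (SE), adjusted p = 0.0218), and so were the synaptotagmin genes Syt4 (Log2FC 1.62 ± 0.24 (SE), adjusted p = 0.0311) and Syt12 (Log2FC 1.97 ± 0.24 (SE), adjusted p = 0.0175). CG43134 was the most abundant of all DEGs, with 40109, 41235 and 34087 in Q79K-W80R libraries, against 13020.2, 19704 and 17546 in T1 libraries (Log2FC 1.22 ± 0.19 (SE), adjusted p = 0.0366).

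The neighboring genes CG31288 and CG13659 on arm 3R rose to similar degrees. CG13659, of the ecdysteroid kinase-like family, had 653, 569.7 and 611 in Q79K-W80R libraries, against 134, 164 and 81.4 in T1 libraries (Log2FC 2.32 ± 0.26 (SE), adjusted p = 0.0116). CG31288 had 375, 341 and 346 in Q79K-W80R libraries, against 80.2, 78.9 and 75.9 in T1 libraries (Log2FC 2.16 ± 0.12 (SE), adjusted p = 0.0031). In both, the T1 libraries were already above the means of WT and LP. CHKov1, another member of the kinase-like family, went the other way, with 183, 164 and 151 in Q79K-W80R libraries, against 432, 374 and 597 in T1 libraries (Log2FC -1.47 ± 0.19 (SE), adjusted p = 0.0218). Both forms were above WT (51.0 to 71.4) and LP (33.1 to 61.8) for CHKov1. Of 14 genes tested on the list written for this family, CG13659 and CHKov1 were the DEGs. CG31288 was not on that list, and whether it belongs to the family was not examined.

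**Figure D3:**
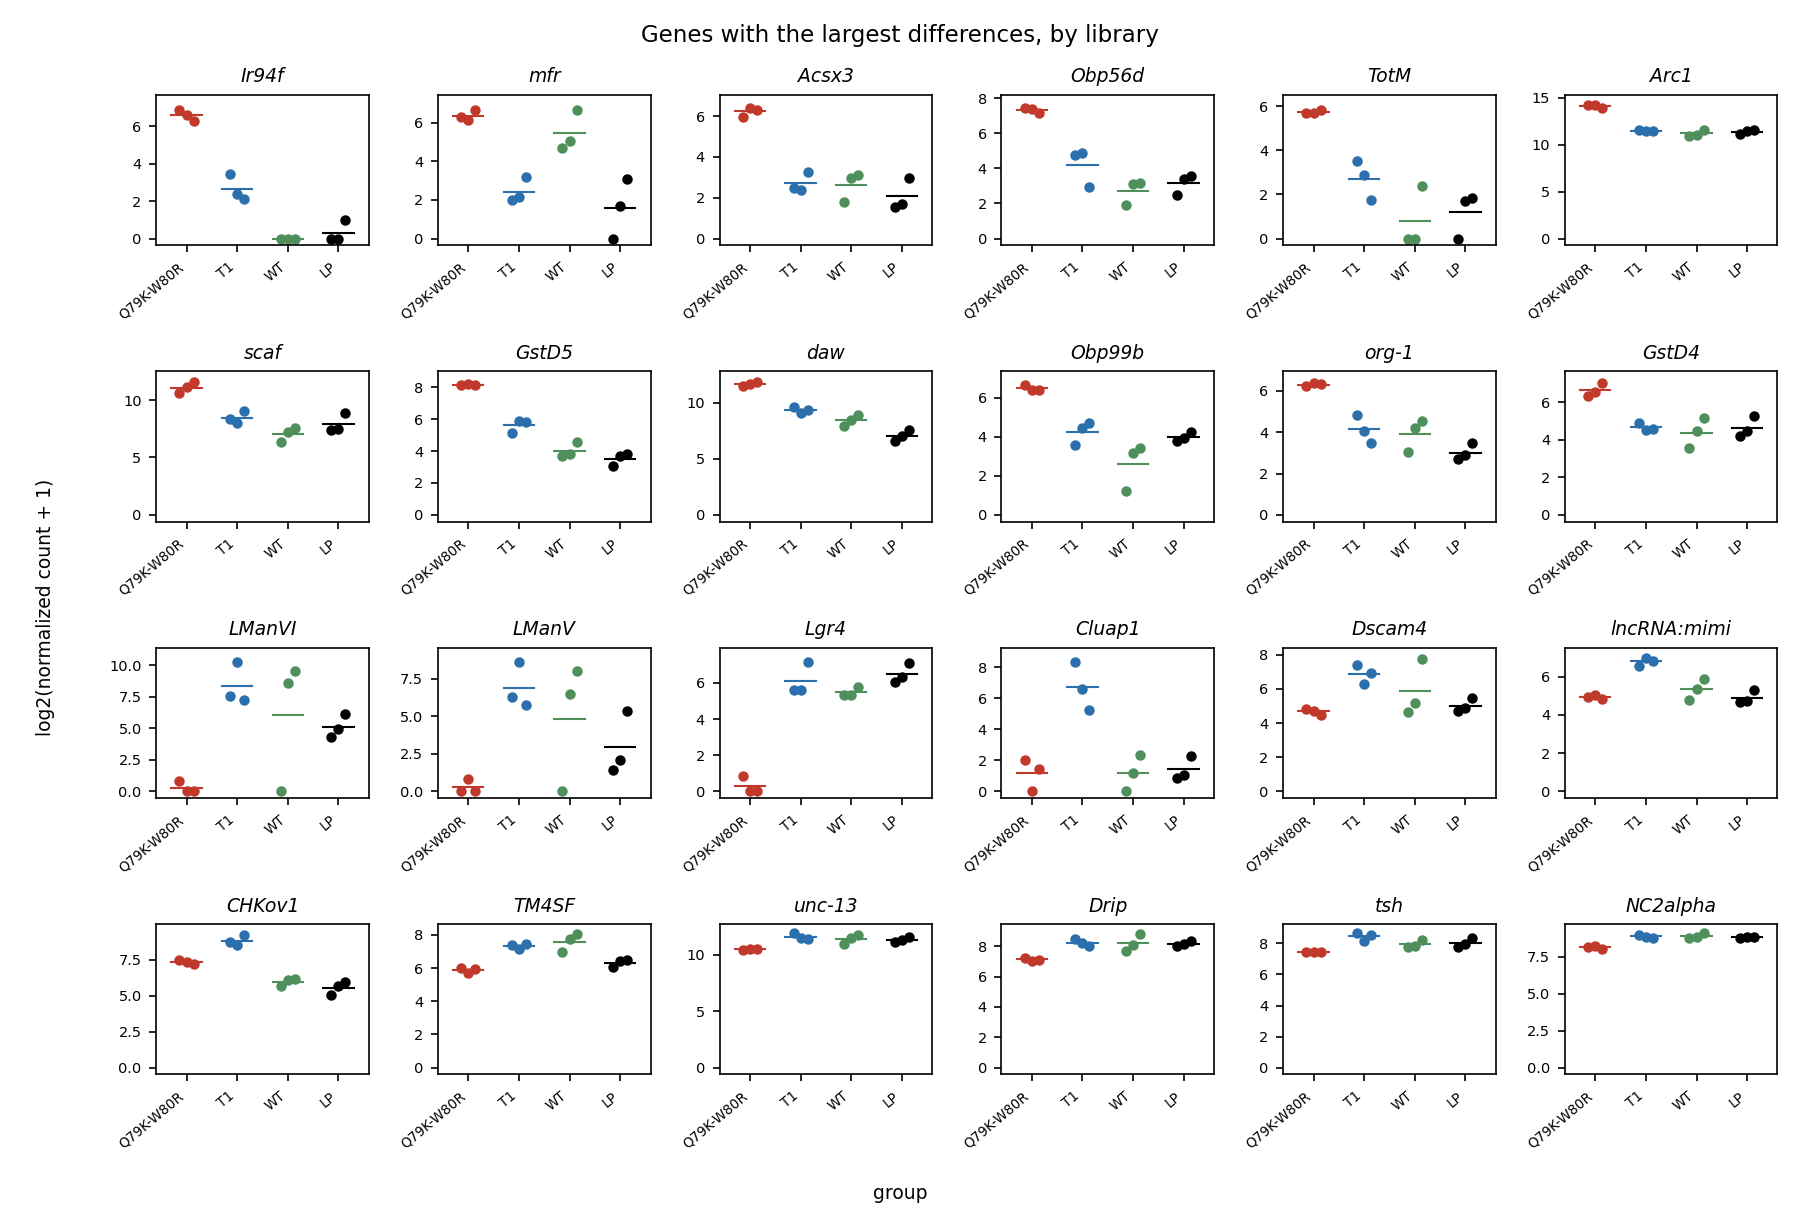
The 12 largest rises and the 12 largest falls among the DEGs that met the naming rule, each point a library and each bar the mean of 3 libraries, as log2(normalized count + 1). Q79K-W80R and T1 points are in library order and WT and LP points run from low to high. The rule took only genes in which the Q79K-W80R and T1 libraries do not overlap.

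Of the 50 gene lists, that of the germline and the oocyte held the most DEGs. Its genes encode maternal RNAs and proteins that are mostly made in nurse cells and loaded into the egg. Of 36 genes of the germline and oocyte list tested, 10 were DEGs and all 10 were higher in Q79K-W80R, beside 1.25% of all genes. A further 10 had an unadjusted p under 0.05 in that direction, and none did in the other. The median Log2FC of the list was 0.55, against 0.01 over all genes tested, and 0.59 without the third T1 library, where 13 were DEGs. With all 18 libraries or the 12 mutant libraries in the fit none of the 36 was a DEG. The median Log2FC was 0.55 there by design, since those fits use the same group means. The rise of these genes went with the higher sum of germline markers given above, all 10 of which are members of the list, and in such bulk samples a larger share of germline cells and more RNA per cell cannot be told apart.

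The gene exu, whose product localizes bcd RNA in the oocyte, had 1458, 1572 and 1870.2 in Q79K-W80R libraries, against 560.2, 530.3 and 646 in T1 libraries (Log2FC 1.49 ± 0.13 (SE), adjusted p = 0.00905). The groups did not overlap, and Q79K-W80R was near LP (1532 to 1721). The bcd gene itself, which encodes the anterior morphogen Bicoid, had 282, 282 and 318 in Q79K-W80R libraries, against 152, 94.6 and 140.1 in T1 libraries (Log2FC 1.21 ± 0.20 (SE), adjusted p = 0.0445). The gene swa, also needed for bcd RNA localization, had 1159.7, 1325 and 1338 in Q79K-W80R libraries, against 560.4, 622 and 587 in T1 libraries (Log2FC 1.11 ± 0.10 (SE), adjusted p = 0.00905).

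The posterior determinant osk had 8882, 10203 and 11816 in Q79K-W80R libraries, against 6198, 5885 and 5148 in T1 libraries (Log2FC 0.84 ± 0.14 (SE), adjusted p = 0.0492). It kept its call under 3 of the 17 alternatives, and LP, at 10374 to 14355, reached above both groups. Its translational repressors bru1 and cup were both higher, with 6230.4, 6943 and 7859.8 for bru1 in Q79K-W80R libraries, against 3400.4, 3271 and 3099.5 in T1 libraries (Log2FC 1.10 ± 0.12 (SE), adjusted p = 0.0112). For cup the Log2FC was 1.16 ± 0.16 (SE) with an adjusted p of 0.0229. The gene nanos, which encodes the posterior translational repressor, had 908, 1008 and 1096 in Q79K-W80R libraries, against 447, 520.3 and 413 in T1 libraries (Log2FC 1.13 ± 0.13 (SE), adjusted p = 0.013). In none of these genes did the groups overlap.

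The other DEGs of the list were otu, which is required for oogenesis (Log2FC 1.23 ± 0.12 (SE), adjusted p = 0.00982), the mitotic cyclin CycB (Log2FC 0.93 ± 0.10 (SE), adjusted p = 0.0114) and aub, a Piwi protein of the piRNA pathway (Log2FC 0.80 ± 0.12 (SE), adjusted p = 0.0318). CycB was abundant, with 9006, 9478 and 9944 in Q79K-W80R libraries, against 4816, 4778 and 5279 in T1 libraries. The defining germline marker vas had 1701, 1955 and 1816 in Q79K-W80R libraries, against 1256, 1042 and 1437 in T1 libraries, and did not pass although the groups did not overlap (Log2FC 0.56 ± 0.14 (SE), adjusted p = 0.167). The gene grk, for the ligand that the oocyte sends to follicle cells, overlapped between the groups (Log2FC 0.20 ± 0.23 (SE), adjusted p = 0.95).

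In the background groups the same 36 genes were mostly above T1. The mean was above the T1 mean in 27 of them in Q79K-W80R, in 24 in T15, in 29 in T5, in 31 in WT and in 31 in LP. The median log2 ratio of the means to T1 was 0.54 in Q79K-W80R, 0.10 in T15, 0.43 in T5, 0.37 in WT and 0.59 in LP. These values are descriptions of groups that share the T1 libraries. The 10 germline markers summed to 9685 to 20786 in T15 libraries, 13875 to 27022 in T5, 13895 to 31189 in WT and 22755 to 28934 in LP. Libraries of the T5 line, and of the WT line, thus reached from the T1 range to above the Q79K-W80R range.

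Maternal genes outside the list were also among the rises, chosen here after their values were seen. The gene wisp, for the poly(A) polymerase of the egg, had 2494, 2599.5 and 2505 in Q79K-W80R libraries, against 1178, 1033 and 1193 in T1 libraries (Log2FC 1.16 ± 0.10 (SE), adjusted p = 0.00905). The gene dhd, for the thioredoxin of the egg, had 6726, 6823 and 7701 in Q79K-W80R libraries, against 2478, 3797 and 2511 in T1 libraries (Log2FC 1.301 ± 0.184 (SE), adjusted p = 0.0271). The maternal tubulin gene alphaTub67C had 1858, 2048 and 2315 in Q79K-W80R libraries, against 798, 855 and 780.3 in T1 libraries (Log2FC 1.35 ± 0.11 (SE), adjusted p = 0.00905). In each of them every Q79K-W80R library was above every T1 library.

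Further such DEGs were zld, for the pioneer factor of zygotic transcription (Log2FC 1.40 ± 0.19 (SE), adjusted p = 0.0242), smg, for the regulator that clears maternal RNA (Log2FC 1.01 ± 0.14 (SE), adjusted p = 0.0242), BicC (Log2FC 1.14 ± 0.13 (SE), adjusted p = 0.0126), the meiotic Polo inhibitor mtrm (Log2FC 1.24 ± 0.11 (SE), adjusted p = 0.00905), the embryonic linker histone BigH1 (Log2FC 1.03 ± 0.12 (SE), adjusted p = 0.0126) and cad (Log2FC 1.22 ± 0.11 (SE), adjusted p = 0.00905). The cyclin CycA rose with CycB (Log2FC 0.80 ± 0.09 (SE), adjusted p = 0.013). These were the 2 DEGs among 38 genes of the cell cycle and DNA replication, whose median Log2FC was 0.03. BicC overlaps CG45084 on the same strand, and otu overlaps CG33181 on the opposite strand in the annotation, so their counts may share reads. With 12 or 18 libraries in the fit, the calls of all these maternal genes and of CycA were lost, with adjusted p values of 0.0666 to 0.238.

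**Figure D4:**
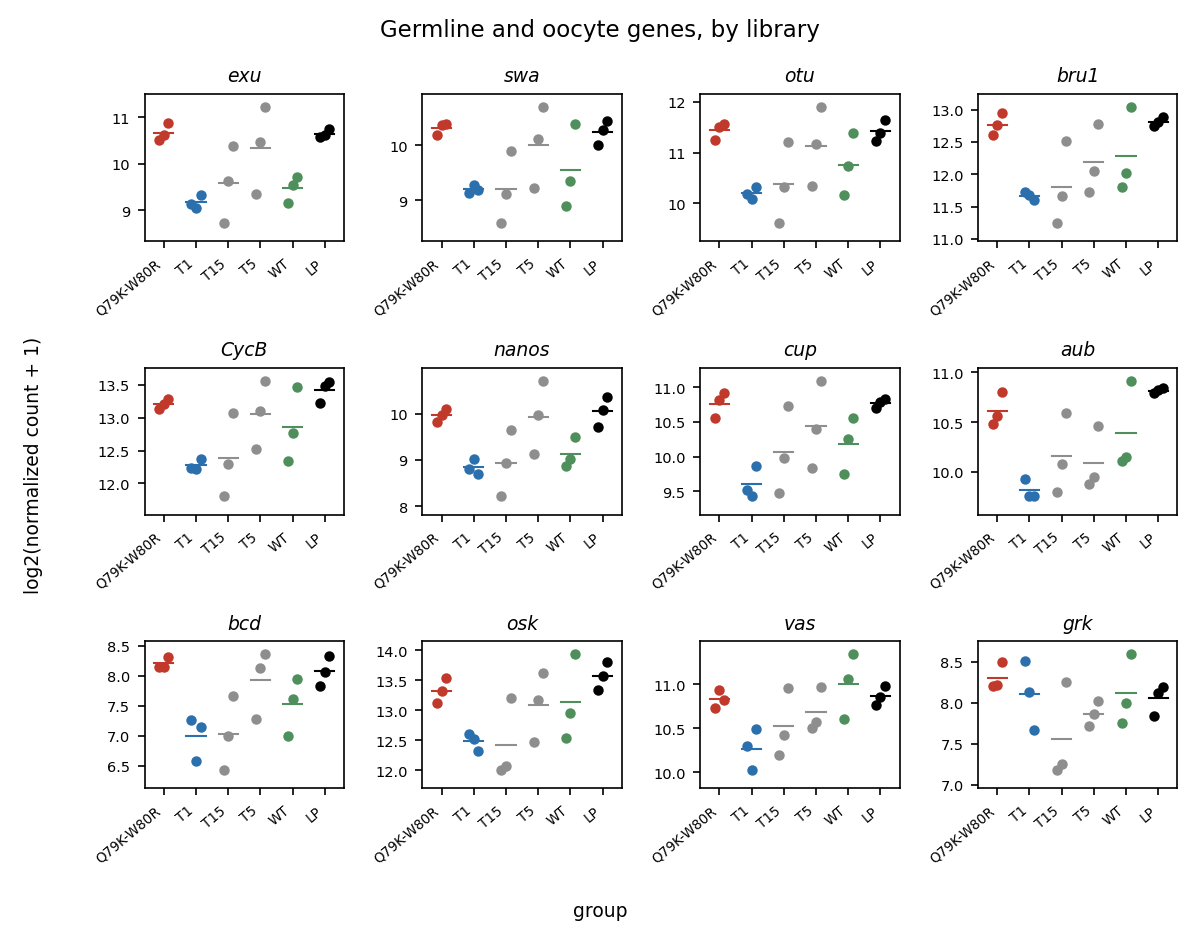
The 10 DEGs of the germline and oocyte list with vas and grk, in Q79K-W80R, T1, T15, T5, WT and LP, each point a library and each bar the mean of 3 libraries, as log2(normalized count + 1) on axes that do not start at 0. Q79K-W80R and T1 points are in library order and the others run from low to high. Q79K-W80R lies near LP and above T1 in the 10 DEGs, while T15, T5 and WT libraries spread over much of the range.

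Egg coat and yolk genes made by the oocyte included DEGs, while those made by follicle cells did not pass. The 3 DEGs of the vitelline membrane list were fs(1)N (Log2FC 1.06 ± 0.11 (SE), adjusted p = 0.0112), fs(1)M3 (Log2FC 1.00 ± 0.13 (SE), adjusted p = 0.0239) and clos (Log2FC 0.96 ± 0.12 (SE), adjusted p = 0.0208), whose proteins are known to come from the oocyte and join the membrane later. The gene fs(1)N had 1391, 1594 and 1588 in Q79K-W80R libraries, against 813, 701 and 686 in T1 libraries. None of the follicle cell genes of that list passed. Its 3 DEGs were among 12 genes tested, beside 1.25% of all genes. The median Log2FC of the 12 genes was -0.06, with 0.51 without the third T1 library and -0.63 without the first. Likewise the yolk receptor yl of the oocyte had 10485, 11399.8 and 11936 in Q79K-W80R libraries, against 6049.9, 6027 and 5545 in T1 libraries (Log2FC 0.94 ± 0.11 (SE), adjusted p = 0.0126), while the yolk protein genes Yp1, Yp2 and Yp3 did not pass, with Log2FC values of 0.21, 0.09 and 0.06. The calls of fs(1)N, fs(1)M3, clos and yl were all lost in the fits of 12 and 18 libraries, where their adjusted p was 0.228 to 0.322.

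Chorion genes, which follicle cells of the last stages amplify and transcribe, gave no call in either direction with all 6 libraries. The 13 tested had a median Log2FC of 0.11. It was 0.96 without the third T1 library and -0.61 without the first, where the eggshell gene Fcp3C was a DEG lower. Their mean log2 level was 11.96, 12.02 and 11.96 in Q79K-W80R libraries, against 10.10, 11.91 and 13.35 in T1 libraries. The T1 libraries thus spanned both sides of Q79K-W80R, and the third held the highest level. Vitelline membrane genes followed, with a mean log2 level of 14.62, 14.65 and 14.56 in Q79K-W80R libraries, against 13.58, 14.47 and 15.41 in T1 libraries. For Cp36, a major chorion protein gene, the Log2FC was 0.25 ± 0.74 (SE), with an adjusted p of 0.992.

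The falls included genes that were at or near 0 in Q79K-W80R. LManVI and LManV, neighboring genes for lysosomal alpha-mannosidases, were among them. LManVI had 0.789, 0 and 0 in Q79K-W80R libraries, against 188, 1217 and 152 in T1 libraries (Log2FC -8.08 ± 0.81 (SE), adjusted p = 0.00982). LManV had 0, 0.789 and 0 in Q79K-W80R libraries, against 77.5, 386 and 52.8 in T1 libraries (Log2FC -6.60 ± 0.78 (SE), adjusted p = 0.0142). The second T1 library was highest for both, and it was also the T1 library with the highest sum of midgut enzyme markers, 5643, against 381 in the first and 18.5 in the third. In the background groups that sum was 3.44 to 118 in T15, 963 to 1720 in T5, 7.71 to 13148 in WT and 2951 to 7271 in LP. For LManVI and LManV, Q79K-W80R overlapped the range of the WT and LP libraries.

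CG10911 and CG31343 were likewise highest in the second T1 library. CG10911 was listed at 0 in all Q79K-W80R libraries, against 82.0, 1397 and 66.2 in T1 libraries (adjusted p = 0.0311). CG31343 had 1.58, 0 and 0.859 in Q79K-W80R libraries, against 71.2, 588 and 90.5 in T1 libraries (Log2FC -6.54 ± 0.85 (SE), adjusted p = 0.0208). With each T1 library left out in turn, the highest adjusted p was 0.0297 for LManVI, 0.046 for LManV, 0.0591 for CG10911 and 0.0405 for CG31343. The part of midgut cells in these 4 differences was not tested. Of the 24 lower DEGs, 9 were under 10 in every Q79K-W80R library, so they passed the filter only through T1, and their fitted Log2FC depends on the added 1. Likewise 5 of the 113 higher DEGs were under 10 in every T1 library and passed only through Q79K-W80R. Of all 9065 genes tested, 63 were under 10 throughout either group.

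Lgr4, which encodes a leucine-rich repeat receptor of the LGR family, had 0.792, 0 and 0 in Q79K-W80R libraries, against 47.9, 48.0 and 139.6 in T1 libraries (Log2FC -5.84 ± 0.59 (SE), adjusted p = 0.00982). It was at 39.0 to 54.1 in WT and 66.3 to 135 in LP, so Q79K-W80R was the group that stood apart. Lgr4 overlaps CG32641 on the opposite strand, a gene that was lower as well (Log2FC -1.18 ± 0.17 (SE), adjusted p = 0.0311). Cluap1, whose product is a part of the ciliary transport machinery, had 3.15, 0 and 1.71 in Q79K-W80R libraries, against 321, 97.7 and 36.8 in T1 libraries (Log2FC -5.57 ± 0.88 (SE), adjusted p = 0.0382). Here T1 was the group that stood apart, since the highest of the other 15 libraries was at 4.02. CG16824 behaved in the same way, with 2.32, 2.36 and 4.05 in Q79K-W80R libraries, against 61.3, 89.7 and 30.5 in T1 libraries (Log2FC -3.87 ± 0.48 (SE), adjusted p = 0.0183) and at most 4.08 elsewhere. The third T1 library had the lowest level of the 3 for both genes. Genes of this pattern were sought by their level in all 3 T1 libraries, so presence in the third was a condition of the search.

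Dscam4, of the Dscam family of immunoglobulin cell adhesion proteins, had 27.4, 25.6 and 21.5 in Q79K-W80R libraries, against 167, 78.5 and 121 in T1 libraries (Log2FC -2.19 ± 0.31 (SE), adjusted p = 0.0261). The noncoding RNA gene lncRNA:mimi had 29.9, 31.5 and 27.3 in Q79K-W80R libraries, against 94.6, 125 and 113 in T1 libraries (Log2FC -1.86 ± 0.20 (SE), adjusted p = 0.0112). The tetraspanin gene TM4SF was lower as well (Log2FC -1.44 ± 0.17 (SE), adjusted p = 0.0159). For TM4SF Q79K-W80R lay below every WT and LP library, while for Dscam4 and lncRNA:mimi it overlapped the LP range.

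Of genes with more reads, unc-13, for a protein that primes synaptic vesicles, had 1351, 1432 and 1435 in Q79K-W80R libraries, against 3809, 2809 and 2702 in T1 libraries (Log2FC -1.13 ± 0.15 (SE), adjusted p = 0.0212). The antisense gene asRNA:CR44029, which overlaps it, was also lower (Log2FC -1.17 ± 0.19 (SE), adjusted p = 0.0445). These were the 2 DEGs among 77 genes tested on chromosome 4 (2.6% lower, beside 0.265% of all genes), and they stand for 1 locus. Drip, an aquaporin gene, had 151, 131 and 139 in Q79K-W80R libraries, against 353, 297 and 253 in T1 libraries (Log2FC -1.09 ± 0.16 (SE), adjusted p = 0.031). The gene tsh, for the zinc finger factor Teashirt, had 169.8, 172 and 170.5 in Q79K-W80R libraries, against 403, 286 and 369 in T1 libraries (Log2FC -1.03 ± 0.15 (SE), adjusted p = 0.0323). NC2alpha, for a subunit of a general repressor of transcription, fell less (Log2FC -0.72 ± 0.11 (SE), adjusted p = 0.0324).

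The gene sty, for Sprouty, an antagonist of EGF and FGF receptor signaling, had 1603, 1458 and 1306 in Q79K-W80R libraries, against 2247, 2193 and 2406 in T1 libraries (Log2FC -0.65 ± 0.11 (SE), adjusted p = 0.0461). It was higher still in WT, at 3298 to 3351. EGF receptor signaling patterns the follicle cells, and some other genes of patterning lay below T1 in every library without passing. They were pnt (Log2FC -0.38 ± 0.11 (SE), adjusted p = 0.28), ptc of the Hedgehog pathway (Log2FC -0.46 ± 0.13 (SE), adjusted p = 0.216) and aos, chosen after its values were seen (Log2FC -0.63 ± 0.22 (SE), adjusted p = 0.37). The gene bab1 lay above T1 in every library, also without passing (Log2FC 0.61 ± 0.18 (SE), adjusted p = 0.253). Of 34 genes of follicle cell identity and patterning tested, 7 had an unadjusted p under 0.05 in the direction of lower levels, where 2.91% of all genes did, but none passed the adjusted threshold. The only DEG was retn, for an ARID domain DNA-binding protein, which was higher (Log2FC 1.17 ± 0.10 (SE), adjusted p = 0.00905). With 12 or 18 libraries in the fit retn was not called (adjusted p = 0.149 and 0.147), and ab, for a zinc finger factor, was a DEG lower (adjusted p = 0.0302 and 0.0349). The median Log2FC of the list was -0.19. In 11 of the 34 every Q79K-W80R library was below every T1 library, beside 6.12% of all genes, and in 3 it was above, beside 10.5%.

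Of the 50 lists, 31 held no DEG. Of 46 actin and myosin regulators tested, none was a DEG and 5 had an unadjusted p under 0.05, all higher, where 6.63% of all genes did. In 9 of the 46 every Q79K-W80R library was above every T1 library, beside 10.5% of all genes, and in none was it below. The median Log2FC of the list was 0.01, and without the third T1 library the gene qua, for an actin-binding protein, was a DEG higher. Pak3, a kinase that acts on the actin cytoskeleton, had 4023, 4138 and 4449 in Q79K-W80R libraries, against 5029, 4259.7 and 2531 in T1 libraries (Log2FC 0.15 ± 0.25 (SE), adjusted p = 0.984). The actin-binding genes cib (Log2FC 0.43 ± 0.23 (SE), adjusted p = 0.699) and cher (Log2FC 0.01 ± 0.17 (SE), adjusted p = 0.995) overlapped between the groups, as did the microtubule gene Map205 (Log2FC 0.20 ± 0.13 (SE), adjusted p = 0.805) and the muscle myosin gene Mhc (Log2FC 0.69 ± 0.44 (SE), adjusted p = 0.794). Act5C, for cytoplasmic actin, lay above T1 in every Q79K-W80R library but did not pass (Log2FC 0.25 ± 0.17 (SE), adjusted p = 0.813). None of 36 adhesion and polarity genes and none of 12 genes of late follicle maturation was a DEG.

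Cytoplasmic ribosomal protein genes lay slightly lower in Q79K-W80R as a body, with a median Log2FC of -0.28 over 84 genes, but none passed. In 10 of them every Q79K-W80R library was below every T1 library, beside 6.12% of all genes. Their mean log2 level was 14.9996, 15.0354 and 15.0735 in Q79K-W80R libraries, against 15.3383, 15.7241 and 14.8874 in T1 libraries. The first and second T1 libraries were above all Q79K-W80R libraries and the third was below them. The median was -0.50 without that library, -0.10 without the second T1 library and -0.09 after quantile normalization.

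**Figure D5:**
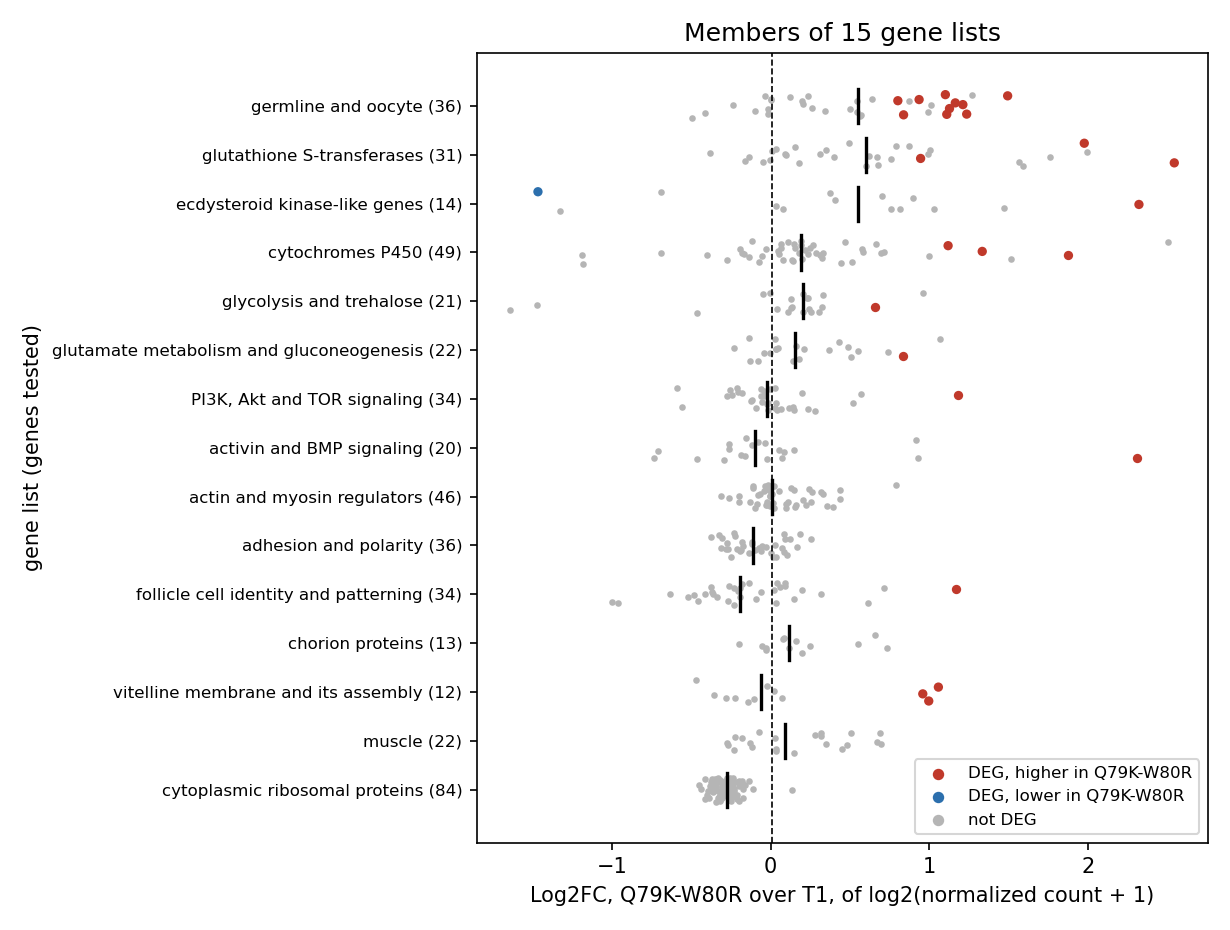
Log2FC of Q79K-W80R over T1 for each tested member of 15 gene lists, with the number tested in brackets, a bar at the median of the list and a dashed line at the median of all 9065 genes. Colored points are DEGs. The germline list holds the most DEGs, 10, and the ribosomal protein genes lie left of the line without a DEG.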

How the data were processed

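RNA-Seq of Drosophila follicle cells was used from 6 libraries. Per the labels, reads were processed with bcl2fastq 2.18.0.12, Bowtie and RSEM 1.3.1, and the paper's methods name DESeq2 for the authors' tests. The deposited signal is the authors' normalized count per gene, scaled over 18 libraries by a method not given in the sources used here. Whole reads could not be recovered from it, so tests made for counts were left out. The kit was stranded. For the strand used in counting, the genome build and the version of Bowtie, the answer is not given in the sources used here. Coordinates are therefore left out, and the reference annotation gave names, chromosome arms and overlaps only. Depth limits genes with low values, and no counting interval was possible.

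From log2(normalized count + 1), Q79K-W80R was compared with T1 in limma 3.58.1 (R 4.3.3), with eBayes moderation that followed the mean level, over 9065 genes with at least 10 in 3 or more of the 6 libraries. The added 1 draws the Log2FC of low genes towards 0. The fit took 1 spread per gene for both groups, although the median SD was 0.0746 in Q79K-W80R and 0.279 in T1. Its p values thus rest on a spread pooled from unequal groups. The p values were adjusted by Benjamini-Hochberg across all 9065 genes. DEGs had to pass 0.05 in adjusted p and differ by 0.585 or more on the log2 scale, up or down. The test was tried on simulated data in which genes varied independently, so the trial does not cover deviations that a whole library shares. The libraries came from individual crosses of 1 line per group.

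Named genes were the 12 largest rises and 12 largest falls among DEGs with symbols other than CG and CR numbers, no overlap between groups and a mean of at least 50 in the higher group, genes named in the paper's text, and up to 6 per list by smallest p, as far as they helped describe it. Others are said to be chosen later or are CG genes needed for a description. The 50 lists were written from general knowledge; 43 names were matched by synonym and 25 had no match. The members and lists were chosen with earlier results of these data known. The 17 alternatives tried were other pseudocounts (0.5 and 5), leaving out the filter, a mean of at least 50, median of ratios, quantile normalization, no trend, array weights, fits of 12 or 18 libraries, a replicate block, and each of the 6 libraries left out. Plots were made in Python 3.11.15 with matplotlib 3.10.9.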

Additional observations from a re-analysis of the deposited data

How the results depend on the processing

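The groups did not overlap in any of the 137 DEGs, so leaving out a library or changing the pseudocount could not turn a sign. The fits of 12 and 18 libraries use the same group means, so the signs there were fixed as well. The 137 DEGs also kept their sign in the other alternatives in which they were tested. Their number was 136 with a pseudocount of 0.5, 139 with 5, 126 without a filter, 116 with a mean of at least 50, 128 after scaling by the median of ratios, 139 after quantile normalization, 136 without a trend and 171 with array weights. It was 79 with the 12 mutant libraries in the fit, 47 higher and 32 lower, and 86 with all 18 libraries. Of the 137 DEGs, 50 were among the 79 and 54 among the 86. The libraries share only a number between the groups: deviations from the group means of libraries with the same number correlated at -0.104, 0.0886 and -0.103. With the replicate block 41 DEGs remained, all among the 137. With 1 library left out the count ranged from 1 to 393. The lowest values came without a Q79K-W80R library, the cause of which was not tested, and 393 came without the third T1 library. The share of DEGs higher in Q79K-W80R was 82.5%, and 59.5% in the fit of 12 libraries, 66.3% in that of 18, 76% with array weights and 64.6% without the third T1 library. Of the 137, Arc1 passed in all 17 alternatives, 8 passed in at least 14 and 92 in at least 10. In the 10 germline DEGs the calls were absent from the fits of 12 and 18 libraries. Their Log2FC is the same there by design, while the spread within the other groups enters the SE. The part of that spread was not tested.

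These are 3 libraries of 1 line per form, so p values measure the spread between crosses of a line. For chorion, vitelline membrane and ribosomal protein genes, the third T1 library lay on the other side of Q79K-W80R from the other T1 libraries. Markers of germline and midgut cells differed between the groups, and their part in the differences was not tested. Reads of overlapping or similar genes could not be separated, and 45 of the 137 DEGs overlap a tested gene in the annotation. The same count was not made over all genes tested, so it is no trait of the DEGs.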

Other observations

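Other lists held few DEGs. Of 20 activin and BMP genes tested, daw was the only DEG, and of 13 FOXO target genes it was again the only one, with a median Log2FC of 0.23 over the list and 0.01 without the third T1 library. None of 21 heat shock protein genes, 20 genes of the unfolded protein and amino acid stress response, 28 of autophagy and the lysosome, 32 of the proteasome or 72 mitochondrial ribosomal proteins was a DEG. None of 20 ecdysone receptor and response genes or 12 genes of ecdysone synthesis and turnover was a DEG. The share of tested genes that were DEGs higher in Q79K-W80R was 1.74% on X, 1.01% on 2L, 1.26% on 2R, 1.03% on 3L and 1.27% on 3R.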
